A study of Mus musculus with 12 samples.

Results

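The comparison described here is that of esophagus from mice carrying an inducible Nanog transgene (TG, 3 arrays) with esophagus from control mice (CTR, 3 arrays). The arrays were chosen by the organ and genotype in the sample titles, which gives 6 of the 12 arrays of the study; the others hold liver of the same 6 mice. All 41174 probes that are not array controls were considered, and 23222 genes or unnamed probes were tested because their probe stood well above background on all 3 arrays of TG or of CTR. Of these, 13946 carried a gene symbol and 9276 were kept under their own identifier.

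The TG mice were Col1a1tetO-Nanog/+;Rosa26rtTA/+, with Nanog behind a doxycycline-responsive tetO promoter at the Col1a1 locus and the transactivator rtTA expressed from the broadly active Rosa26 locus. The CTR mice were Col1a1+/+;Rosa26rtTA/+ and so carried the transactivator without the transgene. Both groups were male, about 8 months old and on a mixed 129Sv/C57BL6 background, and both drank doxycycline at 0.2 mg/ml in 7.5% sucrose for 48 h. Each array holds total RNA of the esophagus of 1 mouse, so that every cell layer of the organ contributes and fewer cells of a type cannot be told apart from less RNA per cell.

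NANOG is a homeodomain transcription factor of the inner cell mass and of embryonic stem cells, where it helps to maintain pluripotency, and adult tissues normally hold little of it. The mouse esophagus is lined by a keratinised stratified squamous epithelium in which basal cells divide and their daughters move outward, switch keratins and build a cornified envelope. Genes of mitosis are transcribed in a wave late in the cell cycle, and many of their promoters carry CCAAT boxes, bound by NF-Y, and a cell cycle homology region with the core TTTGAA, whereas genes of DNA replication peak earlier, under E2F factors. The series title names the mitotic program of stratified epithelia as its subject, and the mitotic lists are therefore described first.

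The promoters of 4 mitotic genes are printed because the genes below include their products: the cyclin Ccnb1 and the kinase Plk1, which act at mitotic entry, the spindle kinase Aurka, and the checkpoint kinase Bub1. Each run gives the 250 bases upstream of the annotated start in the gene's direction, from the RefSeq promoter table on GRCm38.p6, with CCAAT or its complement ATTGG in capitals; TTTGAA or its complement was also searched and is in none of these windows. Aurka lies on the minus strand at chr2:172370571-172370820, Plk1 on the plus strand at chr7:122159185-122159434, Ccnb1 on the minus strand at chr13:100786487-100786736, and Bub1 on the minus strand at chr2:127831860-127832109.
Aurka: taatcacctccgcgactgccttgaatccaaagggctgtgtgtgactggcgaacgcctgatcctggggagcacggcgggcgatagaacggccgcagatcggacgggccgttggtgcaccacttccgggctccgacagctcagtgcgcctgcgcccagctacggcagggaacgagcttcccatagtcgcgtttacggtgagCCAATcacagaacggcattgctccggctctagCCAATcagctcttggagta
Plk1: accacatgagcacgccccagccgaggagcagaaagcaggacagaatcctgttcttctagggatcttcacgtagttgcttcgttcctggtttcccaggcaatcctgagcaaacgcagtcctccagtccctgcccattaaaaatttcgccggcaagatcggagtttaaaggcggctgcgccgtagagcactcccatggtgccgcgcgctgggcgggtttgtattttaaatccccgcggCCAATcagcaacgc
Ccnb1: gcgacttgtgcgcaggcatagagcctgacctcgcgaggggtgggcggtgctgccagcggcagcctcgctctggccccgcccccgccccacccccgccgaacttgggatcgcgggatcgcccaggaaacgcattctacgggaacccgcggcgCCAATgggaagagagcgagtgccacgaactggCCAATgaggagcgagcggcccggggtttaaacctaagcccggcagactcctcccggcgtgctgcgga
Bub1: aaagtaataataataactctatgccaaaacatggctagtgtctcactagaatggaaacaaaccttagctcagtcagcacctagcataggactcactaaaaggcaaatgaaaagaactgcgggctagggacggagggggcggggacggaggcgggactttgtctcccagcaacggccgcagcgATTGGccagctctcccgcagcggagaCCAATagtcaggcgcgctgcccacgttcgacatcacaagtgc

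Aurka, Ccnb1 and Bub1 each held 2 such boxes and Plk1 held 1, all within 99 bases of the start. Of the 86 mitosis genes tested on the arrays, 71 had a promoter in the table, and 45 of these (63.4%) held CCAAT on either strand, against 34.2% of 27018 promoters in all. TTTGAA was held by 21 (29.6% against 16.3%), and both motifs by 17 (23.9% against 5.67%). ATTA, the core shared by many homeodomain sites, was held by 27 (38.0% against 55.4%). Among 32 replication genes with a promoter, 17 (53.1%) held CCAAT, 3 (9.38%) held TTTGAA and 9 (28.1%) held ATTA. These shares describe letters in a window and carry no test.

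Levels below are log2 signals minus the 75th percentile of their array, so that 0 is that percentile and a difference of 1 is a doubling; array values are given in the order of replicates 1, 2 and 3, which are different mice in the 2 groups. The esophagus arrays correlated at 0.973 to 0.988 within groups and at 0.966 to 0.985 between groups, and at 0.670 to 0.700 with the liver arrays. Between 69.9% and 75.3% of probes stood well above background and no spot was saturated. Most of the keratinocyte markers planned for the tissue label were bright. Over the 6 arrays Krt5 lay between 7.41 and 8.12, Krt14 between 4.67 and 5.12 and Krt4 between 7.57 and 8.18. Krt13 lay between 7.13 and 7.88, Lor between 8.70 and 9.20, Sprr3 between 4.89 and 5.41 and Trp63 between 2.75 and 3.49. Ivl, another planned marker, was dimmer, below 0 on all 6 arrays. Striated muscle was high as well, with Acta1 between 8.12 and 8.32 and Myh4 between 7.39 and 8.13.

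The transgene itself could not be read. On all 12 arrays the single Nanog probe (NM_028016) stayed at background, reading -7.87, -8.16 and -8.27 in TG and -8.47, -8.07 and -8.24 in CTR esophagus. No source used here says whether this probe covers the transgene's transcript, so the probe checks no label. Col1a1, whose locus carries the transgene, had overlapping groups at 4.41, 4.67 and 4.81 in TG and 4.93, 4.43 and 4.83 in CTR. Its other 2 probes differed by 0.19 and 0.20 in the opposite direction.

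No gene passed the test: limma over all 12 arrays gave 0 of 23222 genes (percent called 0) at an adjusted p under 0.05, and the smallest adjusted p was 0.133. At an unadjusted p under 0.05 there were 460 genes higher in TG (1.98%) and 464 lower (2%). The mean was higher in TG for 50.6% of genes and lower for 49.4%. The groups did not overlap for 2923 genes, with the TG arrays on the higher side in 1578 (6.8%) and on the lower side in 1345 (5.79%). The median difference over all genes was 0.0048, and the middle 95% of genes lay between -0.86 and 0.70. The counts that follow are read against these background shares and are descriptions, since no single gene in them was called.

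Genes of mitosis stood together on the TG side of this distribution. Of 97 genes listed, 86 were tested, and the TG mean was higher for 82 of them (background 50.6%), with a median difference of 0.81. All 3 TG arrays exceeded all 3 CTR arrays for 45 of the 86 (52.3%, background 6.8%), and the reverse held for 1. The median level over the 86 genes, relative to each gene's control mean, was 1.13, 0.80 and 0.42 on the TG arrays and -0.12, 0.28 and -0.21 on the CTR arrays. The groups did not overlap on this summary, and the nearest arrays were TG replicate 3 and CTR replicate 2. At an unadjusted p under 0.05, 21 were higher in TG (background 1.98%) and 0 lower, and the smallest adjusted p among them was 0.691. Of the 86, 6 were not well above background on all CTR arrays and so entered through the group where they were high.

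**Figure D1:**
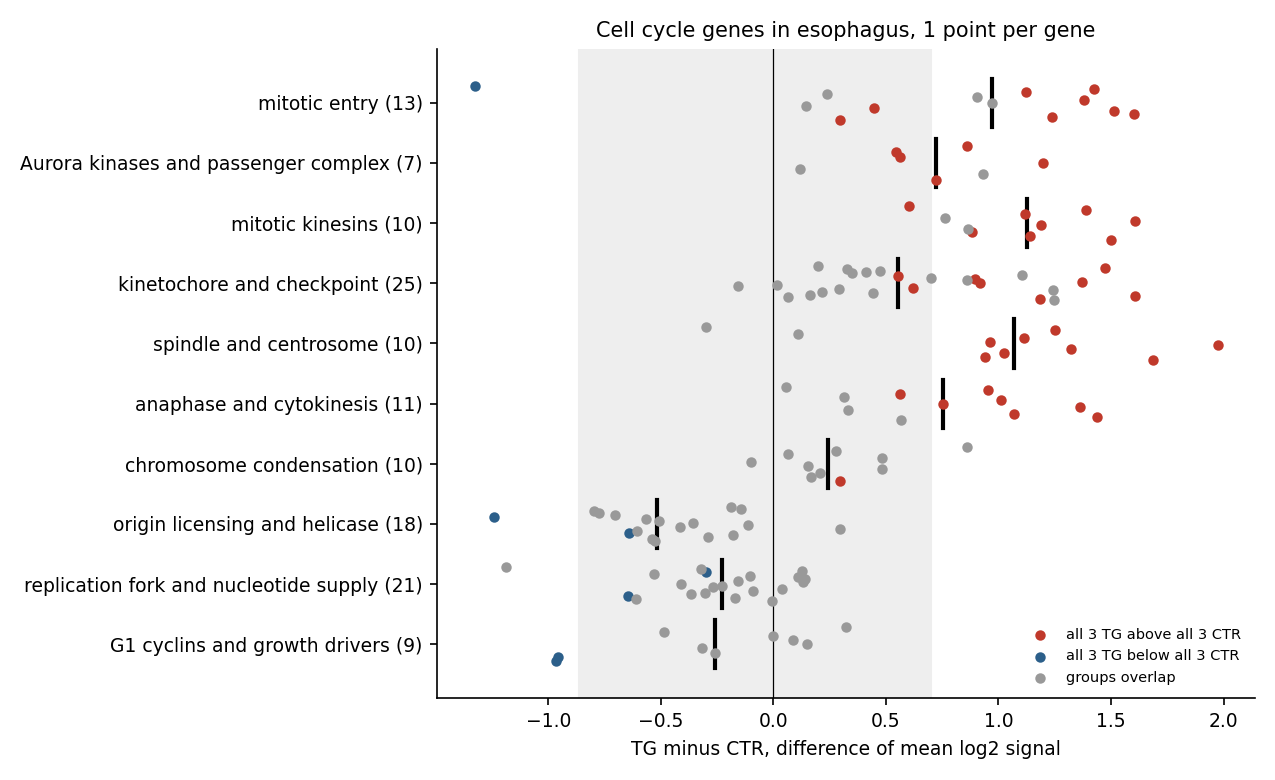
Difference of mean log2 signal, TG minus CTR, for each tested gene of 10 cell cycle lists (1 point per gene, number of genes in brackets); the black bar is the list's median, grey shading spans the middle 95% of all 23222 genes, and height within a row carries no value. Medians of the 7 mitosis lists lie between 0.24 and 1.13, and those of the replication and G1 lists between -0.52 and -0.23.

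The cyclins and kinases that trigger entry into mitosis had a median difference of 0.97, with 12 of 13 genes higher in TG. Plk1, the polo kinase of mitotic entry and spindle formation, measured 0.67, 0.13 and -0.32 in TG and -1.05, -1.07 and -1.68 in CTR, without overlap. That is a difference of 1.42 ± 0.33 (SE, n = 3 against 3), or 2.68-fold. Ccnb2, a B-type cyclin partner of Cdk1, measured 1.81, 1.36 and 0.46 against -0.24, 0.00 and -0.66, a difference of 1.51 ± 0.33. Cdca3, an adaptor that promotes the destruction of the Cdk1 inhibitor WEE1, measured 1.00, 0.68 and 0.19 against -0.54, -0.69 and -1.04 (1.38 ± 0.28). Every TG value of these 3 genes exceeded every CTR value.

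Ccnb1, whose promoter is printed above, measured -1.04, -1.74 and -2.39 in TG and -3.19, -2.78 and -4.01 in CTR on its brightest probe, a difference of 1.60. Its other 2 probes gave 1.69 and 1.51, so all 3 probes were higher in TG. The SE of the brightest one was 1.11 over 12 arrays and 0.43 over the 6 esophagus arrays. Ccna2, the cyclin of S phase and early mitosis, measured 0.47, -0.06 and -0.36 against -1.16, -0.59 and -1.90 (1.24 ± 0.40). Cdk1, the kinase that the cyclins activate, overlapped through CTR replicate 2: -1.58, -1.74 and -2.21 against -3.16, -1.91 and -3.17 (0.90 ± 0.51). Wee1, the kinase that holds Cdk1 inactive, was the single mitosis gene with all TG arrays below all CTR arrays, at -5.69, -5.15 and -4.44 against -4.32, -3.32 and -3.66 (-1.33, SE 1.28).

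The Aurora kinases and the chromosomal passenger complex, which correct kinetochore attachments and later mark the cleavage plane, were higher in TG for 7 of 7 genes, with a median of 0.72. Aurka measured 0.78, 0.39 and 0.22 in TG and -0.09, -0.40 and -0.29 in CTR, a difference of 0.72 ± 0.23 and 1.65-fold, without overlap. Birc5, survivin, measured 2.47, 2.01 and 1.32 against 0.81, 1.01 and 0.38 (1.20 ± 0.34). Incenp, the scaffold of the complex, showed a smaller difference, 0.54 ± 0.19, from 2.37, 2.10 and 1.67 against 1.53, 1.50 and 1.47. Aurkb, its catalytic subunit, overlapped, at -2.07, -2.37 and -3.08 against -3.67, -2.99 and -3.67. Tpx2, which activates and targets Aurka on spindle microtubules, did not overlap, at -0.76, -1.34 and -1.73 against -2.21, -1.97 and -2.22.

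All 10 mitotic kinesins were higher in TG, with the highest list median, 1.13, and 8 without overlap (80%, background 6.8%). Cenpe, the motor that carries chromosomes to the metaphase plate, measured 2.11, 1.54 and 0.69 in TG and 0.04, -0.17 and -0.03 in CTR (1.50 ± 0.30). Kif20a, a motor of cytokinesis, measured 0.81, 0.31 and -0.24 against -1.14, -1.31 and -1.49 (1.61 ± 0.35). Kif11, which slides spindle poles apart, and Kif23, of the central spindle, differed by 1.14 and 1.12, both without overlap. Kif2c, which removes faulty attachments, measured -2.94, -3.63 and -4.13 against -4.66, -4.92 and -5.28, a difference of 1.39.

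Of 25 kinetochore and checkpoint genes 24 were higher in TG, but the median, 0.56, was lower than that of the kinesins. All TG arrays exceeded all CTR arrays for 8 of the 25 (32%, background 6.8%). Cenpa, the histone variant that marks centromeres, had the largest difference of the list, 1.61 ± 0.38, from -0.62, -1.07 and -1.66 against -2.03, -2.68 and -3.45. Bub1 measured -3.02, -3.38 and -3.97 against -5.18, -3.82 and -5.10, and again CTR replicate 2 reached into the TG range. Bub1b, another checkpoint component, did not overlap (1.18 ± 0.63), nor did Mad2l1, which inhibits the anaphase-promoting complex (0.92 ± 0.35).

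Among 10 spindle and centrosome genes 9 were higher in TG (median 1.07), 8 without overlap (80%, background 6.8%). Aspm, which focuses spindle poles, measured -2.30, -2.84 and -3.31 against -3.95, -4.54 and -5.02 (1.69 ± 0.94). Nek2, the centrosome kinase, measured -1.39, -1.93 and -2.28 against -2.44, -2.90 and -3.15 (0.96 ± 0.33). Hmmr, a spindle-associated protein, was not well above background on any CTR array and was at least 1.58-fold higher. Here the bright mean is set against, on each dim array, the higher of the probe's own signal and the lowest signal well above background. The bound depends on that floor: with a common floor for dim signals the Hmmr difference was 0.

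Genes of anaphase and cytokinesis were higher in 11 of 11 cases (median 0.75). Cdc20, the activator of the anaphase-promoting complex, measured 2.83, 2.00 and 1.62 in TG and 0.83, 0.71 and 0.60 in CTR (1.44 ± 0.39). Prc1, which bundles the central spindle, measured 1.54, 1.42 and 0.61 against 0.10, 0.44 and -0.02 (1.01 ± 0.26). Ect2, the exchange factor that starts the contractile ring, differed by 1.36 ± 0.45, and Cep55, of the midbody, by 1.07 ± 0.35; neither overlapped. Ube2c, an enzyme of the same ubiquitin pathway as Cdc20, differed by 0.95 ± 0.38, also without overlap.

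Chromosome condensation stood closest to all genes, with 9 of 10 higher in TG but a median of 0.24. All TG arrays exceeded all CTR arrays for 1 gene (10%, background 6.8%). Top2a, the topoisomerase that untangles sister chromatids, measured -1.69, -2.14 and -2.60 in TG and -3.27, -2.41 and -3.33 in CTR. Ncapd2, a condensin subunit, measured 1.87, 1.47 and 1.24 against 0.91, 0.91 and 1.31 (0.48 ± 0.19). In both genes 1 CTR array reached the TG range, replicate 2 for Top2a and replicate 3 for Ncapd2. Mki67, the usual proliferation marker, had no matched probe.

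**Figure D2:**
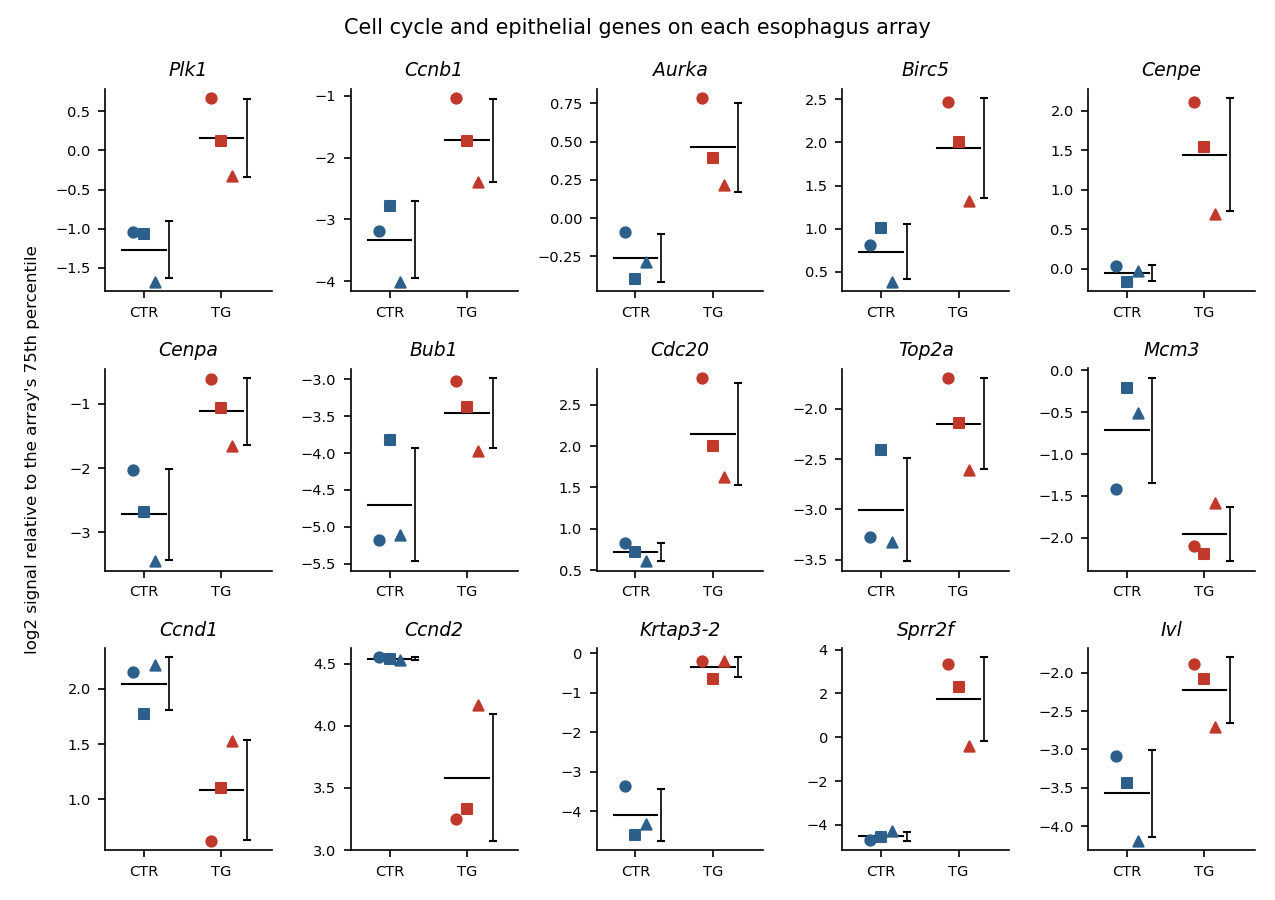
Log2 signal relative to the array's 75th percentile for 15 genes on each esophagus array (blue CTR, red TG; circle, square and triangle are replicates 1, 2 and 3; bar, mean; whisker, SD, n = 3; each panel has its own vertical range). Plk1, Cenpe and Cdc20 separate the groups, while Bub1 and Top2a overlap through CTR replicate 2.

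The 3 TG arrays were not alike in these genes. The order replicate 1 above 2 above 3 held in 60 of the 86, replicate 1 was highest in 73 and replicate 3 lowest in 65. Among the controls replicate 2 was highest in 58. Without CTR replicate 2 the number of genes with all TG above all CTR went from 45 to 68 (79.1%), while over all genes that share was 15.7%. Without TG replicate 1 the median difference was 0.60, and without TG replicate 3 it was 1.01. TG replicate 1 and CTR replicate 2 were on the same slide, and within it the median difference was 0.84, with 72 of 86 higher in TG.

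How precisely these differences were measured depended on which arrays entered the fit. The 12-array fit pools the spread of esophagus and liver, and 44 of the 86 mitosis genes were not well above background on all 6 liver arrays. For those 44 the median SE was 0.65 over 12 arrays and 0.30 over the 6 esophagus arrays alone, and their median difference was 0.91. For the other 42 the median SE was 0.32 and 0.25, and the median difference 0.51. With the 6 arrays alone 50 of the 86 were higher in TG at an unadjusted p under 0.05, against 3.14% of all genes, and 1 was lower, Wee1, against 3.28% of all genes. None of the 86 passed at an adjusted p under 0.05 by limma in either fit, and the smallest over the 6 arrays was 0.698. Over all genes 1 passed in the 6-array fit (0.00431%), Umodl1, which was not well above background on any TG array.

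**Figure D3:**
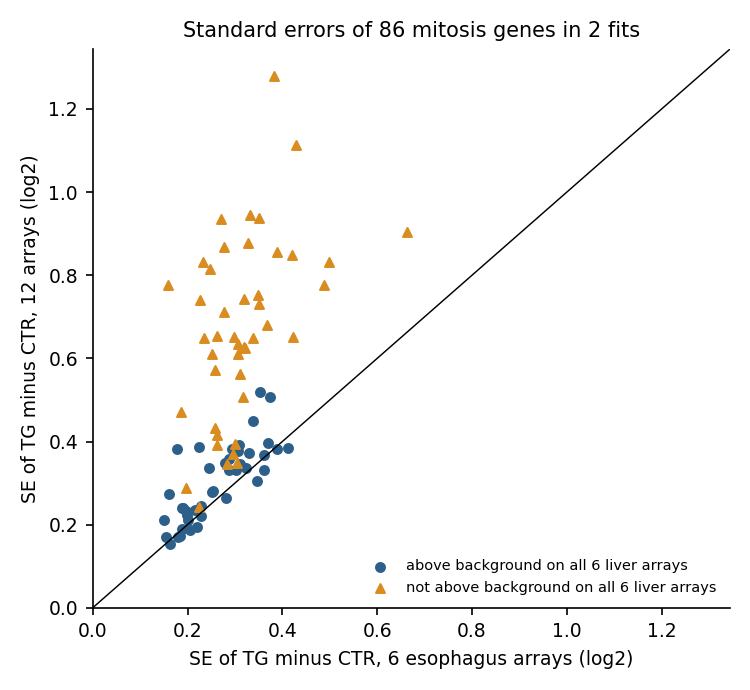
Standard error of TG minus CTR (log2) for the 86 mitosis genes, from the fit over 12 arrays against the fit over the 6 esophagus arrays; the line marks equal values. Genes not well above background on all 6 liver arrays (triangles, 44 genes) have a median of 0.65 against 0.30, the others (circles, 42 genes) 0.32 against 0.25.

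The size of these differences depended on the processing. With a common floor for dim signals, the median difference of the 86 genes was 0.48, with 79 higher in TG. In the authors' deposited table, whose values are quantile-normalized, it was 0.41, with 81 higher in TG, and normexp correction of the scanner signals followed by quantile normalization gave 0.41 as well.

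Replication genes lay on the other side of 0. Of 39 tested, 33 had a lower mean in TG (background 49.4%), with a median of -0.30, and 4 had all TG arrays below all CTR arrays (10.3%, background 5.79%). Their median level was -0.24, -0.36 and -0.27 on the TG arrays and -0.47, 0.46 and -0.01 on the CTR arrays, so the TG values were close together and the controls were spread around them. CTR replicate 1 was the lowest control in 35 of the 39 genes and CTR replicate 2 the highest in 36. Without CTR replicate 1, 26 of 39 had all TG below the remaining CTR arrays (over all genes 12.6%), and without CTR replicate 2 it was 4 (10.3%, over all genes 14.8%).

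Within replication, 17 of 18 genes of origin licensing and the helicase were lower in TG (median -0.52). Mcm3, a subunit of the replicative helicase, measured -2.10, -2.19 and -1.59 in TG and -1.42, -0.21 and -0.51 in CTR (-1.24, SE 0.43), without overlap. Mcm4, from the same ring, measured 1.64, 1.59 and 2.14 against 1.97, 2.79 and 2.73 (-0.70, SE 0.29). Mcm2 and the S phase cyclin Ccne1 overlapped, with differences of -0.56 and -0.53. Among 21 fork and nucleotide genes 16 were lower (median -0.23). Dut, which keeps uracil out of DNA, measured 1.28, 1.00 and 1.29 against 1.35, 2.24 and 1.91 (-0.64, SE 0.22). Uhrf1, which recruits the maintenance methyltransferase, overlapped through CTR replicate 1 at -1.01, -1.70 and -0.75 against -1.07, 0.97 and 0.21. Rrm2, of ribonucleotide reductase, differed by -0.53 and Pcna, the sliding clamp, by -0.09, both within the spread.

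The D-type cyclins relay growth signals to the cell cycle, and the mean of all 3 was lower in TG, though none passed the test. Ccnd2 measured 3.25, 3.33 and 4.17 in TG and 4.55, 4.54 and 4.53 in CTR (-0.96, SE 0.27). Ccnd1 measured 0.62, 1.11 and 1.52 against 2.15, 1.77 and 2.22 (-0.96, SE 0.43). Neither overlapped, and TG replicate 3 was the nearest to the controls. Ccnd3 overlapped, at 0.74, 0.97 and 1.13 against 1.39, 1.30 and 0.93 (-0.26, SE 0.18). Ccnd1 and Ccnd2 were the 2 of 9 G1 genes with all TG below all CTR (22.2%, background 5.79%). Among the E2F, Rb and DREAM regulators 7 of 18 were higher in TG (median -0.07, from -0.18 to 0.05 under other settings). E2f1, a driver of replication genes, measured -3.20, -3.08 and -3.03 against -2.69, -1.91 and -2.52 (-0.73, SE 0.26). Foxm1, a driver of mitotic genes, measured -1.69, -2.17 and -2.54 against -3.07, -2.68 and -2.75 (0.70 ± 0.63). Other members of the list did not share these differences. Mybl2, another driver of mitotic genes, overlapped at -2.53, -2.82 and -2.27 against -2.72, -2.29 and -2.27 (-0.11, SE 0.26). E2f2 (-0.002) and E2f8 (-0.18) overlapped as well.

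Of the inhibitors of cyclin-dependent kinases and p53 targets 6 of 22 were higher in TG, with a median of -0.09 that ran from -0.10 to 0.04 under other settings. All TG arrays lay below all CTR arrays for 4 of them (18.2%, background 5.79%), Sesn1, Cdkn2c, Btg2 and Cdkn1c, with differences between -0.28 and -0.18, and above for 3 (13.6%, background 6.8%), Cdkn2b, Cdkn1b and Bax. Cdkn2b, the inhibitor p15, measured 1.97, 1.62 and 1.23 against 1.12, 0.94 and 1.13 (0.55 ± 0.23), and Cdkn1b, p27, -3.55, -3.83 and -3.44 against -3.97, -4.33 and -5.03 (0.84 ± 0.45). Neither overlapped. Cdkn1a, p21, differed by 0.31 ± 0.52. Of the pluripotency list 16 genes were tested and 8 were higher in TG (median -0.01, from -0.11 to 0.07 under other settings). Pou5f1, NANOG's partner in embryonic stem cells, had a dim probe with overlapping groups (-0.49, SE 0.36), and Tbx3, which epithelia express as well, measured 4.61, 4.76 and 4.36 against 4.30, 3.77 and 4.10 (0.52 ± 0.23).

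**Figure D4:**
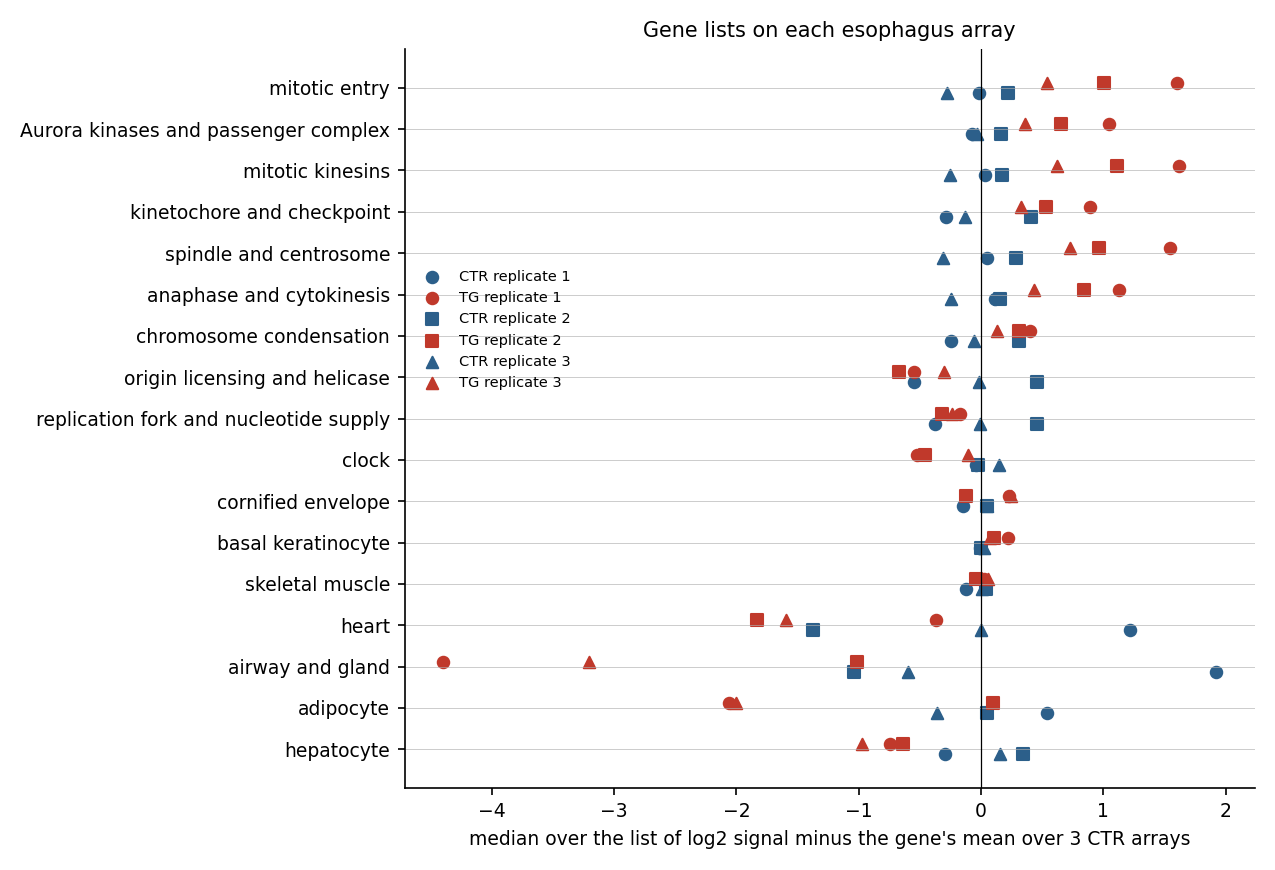
Median over each list of the log2 signal minus the gene's mean on the CTR arrays, for each of the 6 esophagus arrays (blue CTR, red TG, 1 symbol per replicate). The TG arrays stand right of the CTR arrays in the mitotic entry and kinesin lists, while in the airway list TG replicates 1 and 3 stand left of all CTR arrays and TG replicate 2 (-1.01) lies beside CTR replicate 2 (-1.04).

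In the epithelium, lists of whole cell layers had medians near 0. Of 19 basal keratinocyte genes 12 were higher in TG (median 0.11), and 5 of the 19 had all TG arrays above all CTR arrays (26.3%, background 6.8%) with 0 below. These were Klf5, Cd44, Col17a1, Sox2 and Lamb3, with differences between 0.26 and 0.53, and the list's level was 0.22, 0.11 and 0.07 in TG against -0.01, 0.00 and 0.02 in CTR. Of 18 suprabasal genes 11 were higher in TG (median 0.06, from -0.01 to 0.24 under other settings) and of 27 cornified envelope genes 17 (median 0.07). Within the last list 6 genes had all TG arrays above all CTR arrays (22.2%, background 6.8%) and 0 below, and 4 of the 6 belong to the small proline-rich family of envelope cross-linking proteins. Sprr2f measured 3.32, 2.28 and -0.41 in TG and -4.71, -4.57 and -4.29 in CTR, a difference of 6.25 ± 0.88 and 76.2-fold (limma adjusted p = 0.248). Its 3 TG values spanned a wide range, and the lowest, replicate 3, was still far above the controls. Without TG replicate 3 it passed, with an adjusted p of 0.0353 by limma. That pass rests on leaving out the TG array nearest the controls and adds no support. With no array left out, the call depended on the setting. Sprr2f passed by limma with the array median as reference (adjusted p = 0.0434) and with slide as a fixed block (adjusted p = 0.00715).

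The other members of that family differed less. Sprr2d measured -0.64, -1.13 and -0.80 against -2.61, -2.21 and -2.44 (1.56 ± 0.44), and Sprr2h -1.20, -2.39 and -2.18 against -3.47, -3.30 and -3.46 (1.49 ± 0.38). Sprr1a measured 5.60, 4.95 and 4.48 against 3.88, 4.11 and 2.91 (1.38 ± 0.45), and Sprr3, the abundant esophageal member, overlapped (0.18 ± 0.38). Sprr2 genes are close copies of each other, so probes may share signal between them. Ivl, involucrin, measured -1.88, -2.08 and -2.70 against -3.08, -3.43 and -4.19, without overlap (1.35, SE 1.01 over 12 arrays and 0.34 over 6). Krt6a, a keratin of activated epithelium, measured 0.67, 0.02 and -0.09 against -1.15, -0.24 and -1.39, and Klf5, a factor of proliferating basal cells, 3.26, 3.01 and 2.81 against 2.49, 2.66 and 2.35; neither overlapped.

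Krtap3-2, a keratin-associated protein of the hair shaft, had the smallest p of all genes. It measured -0.21, -0.65 and -0.21 in TG and -3.36, -4.62 and -4.32 in CTR, a difference of 3.74 ± 0.44 and 13.4-fold (limma adjusted p = 0.133; 0.104 over the 6 arrays). The groups lay far apart, with the TG values close together (SD 0.25) and the CTR values more spread (SD 0.66). The call depended on the setting: by limma the adjusted p was 0.0183 with the array median as reference, 0.00164 after quantile normalization and 3.57e-05 in the authors' deposited table, where the difference was 2.66. It also passed by limma with a common floor for dim signals (adjusted p = 0.000204) and with array weights (adjusted p = 0.0245). A further pass, without CTR replicate 1 (limma adjusted p = 0.0443), left out the control nearest TG. Krtap3-2 did not pass after quantile normalization over the 6 esophagus arrays. The hair list, Krtap3-2 included, had 6 of 16 genes higher in TG and a median of -0.14, which ran from -0.14 to 0.23 under other settings.

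Besides these, the 10 smallest p-values on the higher side belonged to Cdca3, Cenpe, Stard4, Catsperz, Kif20a, Ccnb2, Plk1 and Cenpa. Stard4, a carrier of sterols, measured 1.24, 1.21 and 1.10 in TG and 0.31, 0.49 and -0.26 in CTR (1.00 ± 0.20). Catsperz, known from a sperm calcium channel, measured 1.47, 1.35 and 1.01 against 0.28, 0.51 and 0.43 (0.88 ± 0.19). Neither overlapped.

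On the lower side the genes of smallest p were mostly ones known from heart, liver and fat. Nppa, the atrial natriuretic peptide, measured -3.28, -3.23 and -3.10 in TG and 5.41, 0.48 and 3.97 in CTR (-6.49, SE 0.93; limma adjusted p = 0.248). The TG arrays were close together at a low level and the controls were widely spread, with replicate 2 lowest. Mybpc3 and Tnni3, of the cardiac sarcomere, had the same order of CTR arrays: -3.29, -4.59 and -3.66 against 3.49, -0.63 and 2.30, and -3.22, -3.24 and -4.15 against 3.84, -0.56 and 2.09. Of 16 heart genes 14 were lower in TG (median -0.77) and 7 did not overlap (43.8%, background 5.79%), among them the atrial Myl7 (-2.23, SE 0.74) and Myh6 (-2.53, SE 1.11). Without CTR replicate 2, Nppa, Mybpc3 and Tnni3 passed by limma, Nppa at an adjusted p of 9.79e-05. These passes rest on leaving out the control nearest the TG arrays and add no support. With no array left out, Nppa passed by limma with the array median as reference (adjusted p = 0.0434).

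Airway and gland genes had the lowest median of any list described, -2.55, with 14 of 15 lower in TG. In 6 of them (40%, background 5.79%) all TG arrays lay below all CTR arrays. Of the 15, 10 were well above background on all 6 arrays, and the others entered through CTR, where they were high. Scgb1a1, the club cell secretoglobin, measured -0.57, 2.49 and -0.32 in TG and 5.81, 2.90 and 2.76 in CTR (-3.29, SE 0.95). Bpifa1, secreted by upper airway epithelium, measured -5.29, 4.35 and -5.78 against 7.09, 3.93 and 5.07, and Foxj1, of multiciliated cells, -6.67, -2.80 and -6.03 against 1.22, -2.17 and -1.48. In TG the Foxj1 probe cleared background on 1 array of 3. In each of these genes TG replicate 2 stood with or next to the controls. With all arrays Bpifa1 had an adjusted p of 0.9998 by limma. Without TG replicate 2 it passed, at an adjusted p of 0.00524 by limma and a difference of -10.90. That pass rests on leaving out the TG array nearest the controls and adds no support.

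Fat genes followed the same arrays. All 14 adipocyte genes had a lower TG mean (median -1.29), and 1 did not overlap (7.14%, background 5.79%). Of the 14, 11 were well above background on all 6 arrays, and the others entered through CTR, where they were high. Ucp1, the uncoupling protein of brown fat, measured -5.29, 2.97 and -4.58 in TG and 1.41, 3.25 and 3.18 in CTR, Adipoq 0.26, 2.53 and 0.11 against 3.48, 2.78 and 1.72, and Plin1, of lipid droplets, -0.93, 1.99 and -0.82 against 2.76, 1.63 and 1.39. Lep, leptin, was the exception without overlap, at -7.86, -6.60 and -5.01 against -1.54, -2.75 and -2.34 (-4.28, SE 0.78), but its probe was well above background on only 1 of the 3 TG arrays, so the size of this difference rests on dim signals. It passed by limma with an adjusted p of 0.0423 in the authors' deposited table, where the difference was -1.49.

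Hepatocyte genes were dim and lower in TG for 16 of 17 (median -0.62). Alb measured -4.67, -5.63 and -4.90 against -3.35, -1.31 and -1.41 (-3.04, SE 0.47), and F2, prothrombin, -4.48, -4.41 and -4.72 against -3.58, -3.10 and -3.18 (-1.25, SE 0.19). Serpind1, heparin cofactor, differed by -1.11 (SE 0.21), Uox, urate oxidase, by -1.64 (SE 0.26), and Azgp1, a secreted glycoprotein, by -0.98 (SE 0.20), all without overlap. Hamp, the iron hormone hepcidin, was not well above background on any TG array and was at least 8.98-fold lower by the rule used for Hmmr. That bound holds for this floor and scaling only, as the Hamp difference ran from -4.44 to -1.24 under other settings. In TG the Alb probe cleared background on 2 arrays of 3, and without CTR replicate 1, its control nearest TG, it passed by limma.

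Red blood cell genes were lower in 5 of 5 cases (median -0.97), with Hbb-bt at 4.92, 5.54 and 5.28 against 6.67, 6.66 and 6.04 and Hba-a1 at 3.42, 3.87 and 3.89 against 5.21, 4.78 and 4.11. Mast cell genes were lower in 7 of 7 (median -0.76). Cpa3, their carboxypeptidase, differed by -1.03 (SE 0.43) with CTR replicate 2 inside the TG range. Macrophage genes were lower in 13 of 13 (median -0.33), and 0 had all TG arrays below all CTR arrays (background 5.79%). Skeletal muscle lay at a median of -0.09, which ran from -0.09 to 0.39 under other settings, with Acta1 differing by 0.11 (SE 0.46). In smooth muscle (median -0.17) the contractile myosin Myh11 measured 3.49, 4.04 and 4.14 in TG and 4.95, 4.53 and 4.77 in CTR (-0.86, SE 0.23), without overlap, while Cnn1 overlapped. The heart, airway, fat, hepatocyte and red blood cell lists had lower medians in TG, but not all on every TG array. In the hepatocyte and red blood cell lists all TG arrays lay below all CTR arrays. The fat list on TG replicate 2 (0.10) lay within the CTR range (-0.36 to 0.54). For airway, TG replicate 2 (-1.01) lay beside CTR replicate 2 (-1.04). For heart, TG replicate 1 (-0.37) lay above CTR replicate 2 (-1.38). The part of these lists in the mitotic differences was not tested.

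**Figure D5:**
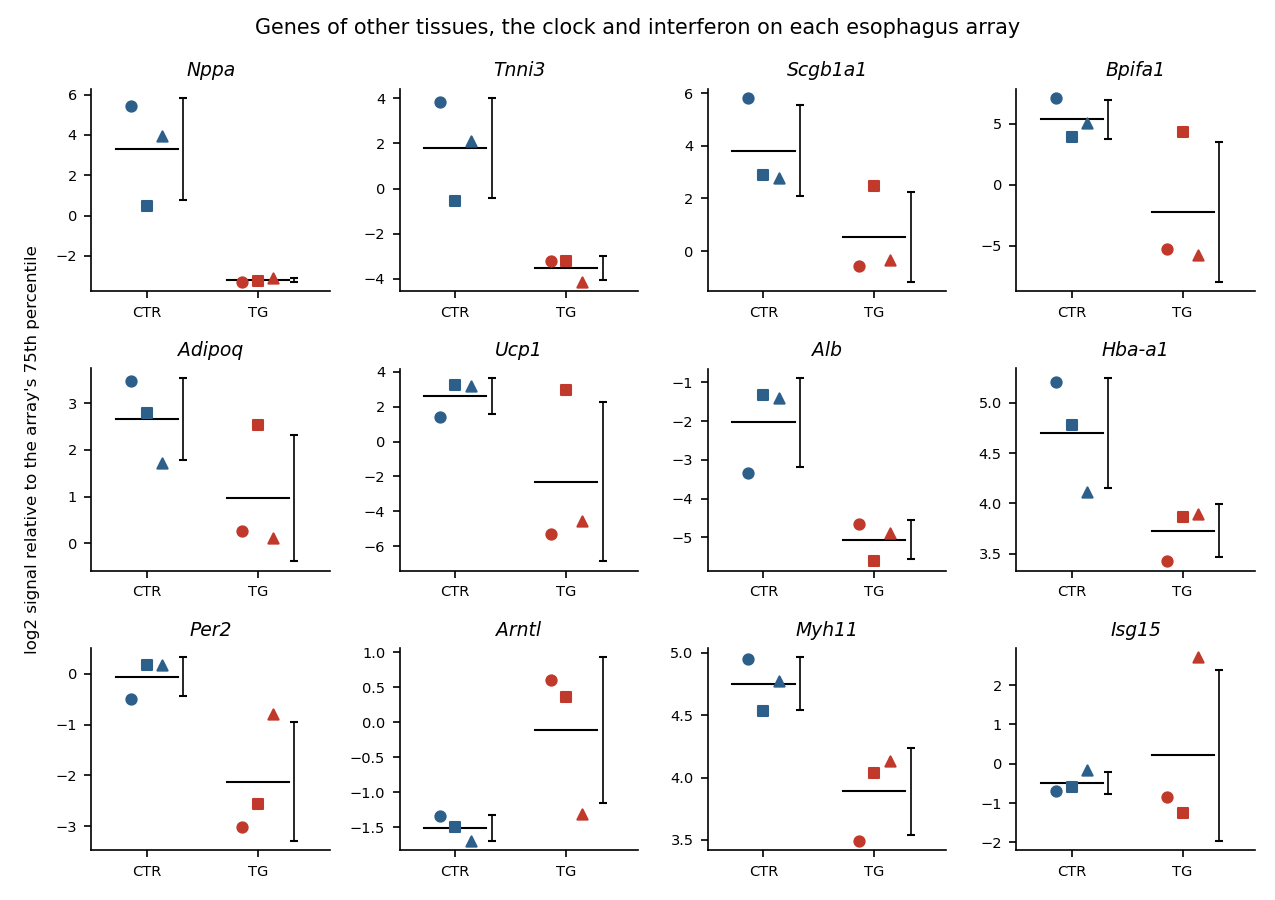
Log2 signal relative to the array's 75th percentile for 12 genes known from other tissues, blood, the clock, smooth muscle and interferon. Blue marks CTR and red TG, with circle, square and triangle for replicates 1, 2 and 3. Bars give means and whiskers SD (n = 3), and each panel has its own vertical range. TG replicate 2 stands with the controls in Bpifa1 and Ucp1, and TG replicate 3 stands apart from the other TG arrays in Arntl and Isg15.

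Other lists set single arrays apart. Clock genes had a median difference of -0.43, with -0.52, -0.46 and -0.11 on the TG arrays and -0.04, -0.02 and 0.15 on the CTR arrays. Per2, a repressor of the clock, measured -3.01, -2.55 and -0.80 in TG and -0.50, 0.17 and 0.17 in CTR, and its activator Arntl the mirror image, 0.61, 0.36 and -1.31 against -1.34, -1.50 and -1.70. The output factors Hlf and Dbp measured -0.65, -0.15 and 0.82 against 1.30, 0.89 and 1.57, and 4.52, 4.58 and 5.77 against 5.95, 5.54 and 5.95. TG replicates 1 and 2 stood apart and TG replicate 3 was near the controls, as in Ccnd1 and Ccnd2, and replicate 3 was also the TG array lowest in mitotic genes; Wee1, known as a clock output, followed the order of Per2. The labels do not state the hour of dissection, and the part of the clock in the other differences was not tested.

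Interferon-stimulated genes were high on TG replicate 3 alone, whose list median was 1.14 against -0.59 and -0.39 on the other TG arrays and between -0.10 and 0.11 in CTR. Isg15 measured -0.83, -1.24 and 2.71 in TG and -0.69, -0.58 and -0.16 in CTR. Ifit3 and Rsad2 went the other way, with all TG arrays below all CTR arrays (-0.86 in both).

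The esophagus difference was also set against the liver difference of the same mice in 1 model. For a gap between the 2 differences 0 of 23222 genes passed (limma, smallest adjusted p = 0.945), and 1156 of the 23222 reached an unadjusted p under 0.05. With so few arrays a group, this does not show the 2 differences to be equal. That model takes the 12 arrays as independent although both organs came from the same mice. With mouse as a random block, an alternative added after seeing the data, 0 genes passed (limma, smallest adjusted p = 0.82) and 1412 reached an unadjusted p under 0.05.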

How the data were processed

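Total RNA of 12 organ samples from 6 mice was hybridised to 1-colour (Cy3) Agilent 4x44K mouse arrays, 1 array per sample, and esophagus makes up 6 of them. Per the file headers, the deposited spot intensities were read with Feature Extraction 10.7.1.1, which subtracted background within each array. The deposited log2 table holds the authors' processed values, which the columns show to be quantile-normalized, with a median of 7.27; limma is named in the submitters' processing notes, without a role, and the background treatment is not given there.

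From the processed intensities, 554 outlier spots on the 6 esophagus arrays were left out, each array was scaled to its 75th percentile, log2 was taken and spots of a probe were averaged. Gene names came from RefSeq accessions (23374 probes, 16535 genes), with a gene read from its brightest probe. Probes well above background on all 3 arrays of TG or CTR esophagus were tested with limma 3.58.1 (lmFit and eBayes, R 4.3.3) over 12 arrays and 4 groups, with Benjamini-Hochberg adjustment and a threshold of 0.05. The fit had 8 residual and 2.31 prior degrees of freedom. The code was tested on simulated data.

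Named were Nanog, Col1a1, Aurka, Plk1, Ccnb1, Bub1 and the 10 smallest p-values per direction. From the lists described, anchor genes and up to 6 members of smallest p were added, but not every anchor. Anchors left out above include Nr1d1 (-0.16), Myc (-0.003), Mdm2 (-0.05) and Itga6 (0.24), all with overlapping groups. Tsc22d3, Timp4 and Umodl1 were singled out after their values were seen. The 44 gene lists and their members were chosen with earlier results of these data known. The mean signal column the normexp alternative was planned on is not in the files used here, so the median signal took its place. Each esophagus array is a separate mouse, whose liver is on another array, and 3 arrays a group limit the precision; an exact permutation test of 3 against 3 could not go below p = 0.1. The replicate numbers name different mice in TG and CTR, so they pair nothing. The arrays lay on 5 slides.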

Additional observations from a re-analysis of the deposited data

How the results depend on the processing

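The count of genes passing by limma, 0 with the settings of the report, was 1 after quantile normalization over 12 or over 6 arrays, 1 with the 6 esophagus arrays alone, 1 with slide as a fixed block and 1 with array weights; 2 passed with normexp and 2 in the authors' deposited table, and the array median and a common floor for dim signals gave 3 each. Leaving out 1 array gave 0 to 7 genes (7 without TG replicate 2, 3 without CTR replicate 1 and 3 without CTR replicate 2). The count remained 0 without a filter, with all 6 arrays above background, per probe, with the mean of probes, with trend and robust, with slide or animal as a random block (consensus correlations 0.0852 and 0.0886), and without moderation. Same-numbered TG and CTR arrays deviated together at -0.16, 0.02 and 0.06, so the numbers share only a label; with the replicate block 0 genes passed and the mitosis median was 0.81. That median was 0.41 with normexp and 0.41 in the authors' table, and 0.60 to 1.01 with 1 array left out; its sign held under every setting run. Medians near 0 also changed sign under other settings for the hair, skeletal muscle, suprabasal, CDK inhibitor, E2F and pluripotency lists, and that of macrophage genes reached 0.018 with 1 array left out. Among single genes directions turned for Col1a1 (0.0088 in the authors' table, 0.096 with the mean of its probes, 0.14 with slide as a fixed block, -0.25 to 0.012 with 1 array left out), for Isg15 (-0.25 within the slide holding both groups, -0.56 to 1.42 with 1 array left out) and for Pcna (-0.30 to 0.24 with 1 array left out). The cause of these changes was not tested. The normexp setting used the median spot signal. The common floor set Hmmr, Ttk and Umodl1 to a difference of 0. Signals not well above background give only a bound.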

Other observations

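Some genes outside the lists described had small spread within each group. Timp4, an inhibitor of matrix metalloproteinases, measured -2.07, -2.01 and -1.92 in TG and -0.47, -0.33 and -0.56 in CTR, a difference of -1.54 with an SE of 0.43 over 12 arrays and 0.15 over the 6 esophagus arrays (limma adjusted p = 0.104 over 6 arrays). Umodl1, which encodes a uromodulin-like protein, measured -8.05, -8.14 and -8.12 in TG, not well above background, and -5.08, -4.59 and -5.05 in CTR. With the 6 arrays alone its adjusted p was 0.0148 by limma. Tsc22d3, a target of glucocorticoids, measured 1.99, 2.29 and 2.45 in TG and 3.19, 3.69 and 4.21 in CTR, without overlap. These 3 genes were chosen after their values were seen.

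Single arrays also stood apart within a group. Klf2, a transcription factor known from endothelium and T cells, measured 4.96, 5.58 and 1.80 in CTR and 5.59, 5.29 and 5.76 in TG, so that CTR replicate 3 was low. Lck, a kinase of T cells, measured -3.42, -0.18 and -2.86 in CTR and -4.20, -2.76 and -3.26 in TG, so that CTR replicate 2 was high. T cell and thymus genes had a median difference of -0.47, with 1 of 10 higher in TG.

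Esophagus and liver arrays of the same slide were compared for shared deviations from their group means over 21604 probes. The correlation was 0.19 for the single pair that shared both slide and mouse. It lay between -0.02 and 0.15 for 6 pairs that shared a slide only, between -0.03 and 0.10 for 5 pairs that shared a mouse only, and between -0.16 and 0.12 for 24 pairs that shared neither. The points share arrays, and no p is given.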
